A study of Homo sapiens with 6 samples.

Results

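The circadian clock genes were described in HepG2, a human liver tumour cell line, grown in plates or in a bioreactor. The members were fixed as 10 named genes: the activators ARNTL (also called BMAL1) and CLOCK, the repressors PER1, PER2, PER3, CRY1, CRY2, NR1D1 and NR1D2, and the output factor DBP. All 10 were found by symbol among the 19846 genes of the count table, and all 10 passed the filter on low counts. Messenger RNA was sequenced from 3 samples of 2D culture in 6-well plates and 3 samples of 3D culture in an interwoven hollow fiber bioreactor, at passages 7 to 9 in both. Seeding of the plates was at 200000 cells/cm2 in EMEM, replaced every 2 days. The bioreactor medium mixed EMEM with the same volume of DMEM, contained 10% serum, and was recirculated at 23.5 mL/min and fed continuously at 2 mL/hour under a gas flow of 200 mL/min. The length of culture, the hour of harvest, the time since the last medium change and any synchronisation of the cells are not stated by the sources used. No serum content is given here for the plates, and no seeding density for the bioreactor. Culture form, medium, feeding, length of culture, hour of harvest and other unstated conditions therefore cannot be told apart in any difference below. The labels do not tell separate cultures from repeat samples of 1 culture. The spread behind each p-value is that between these samples and may be technical.

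The mammalian clock is a feedback loop of transcription factors that runs in nearly every cell and gives many liver genes a daily rhythm. CLOCK and ARNTL bind E-box motifs as a pair and switch on the PER, CRY and NR1D genes, and the PER and CRY proteins then return to block that pair. A side loop links NR1D1 and NR1D2 (REV-ERB alpha and beta), which repress ARNTL through RRE motifs, with the ROR receptors, which activate it. DBP and its relatives TEF and HLF activate genes through D-box motifs, where NFIL3 represses them. Because these genes peak at different hours in a rhythmic tissue, and because dishes of unsynchronised cells average over phases, a single time point gives a level and not a rhythm.

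The start regions of the 4 genes that were lower in 3D are shown first. Start regions of clock genes can carry the motifs by which clock factors act on one another. Matches were also found in members that were not called, so they do not set these 4 apart. RefSeq start sites (GRCh38.p14) were found for all 10 genes, 15 windows in all, each from 250 bases before the start to 50 bases after it. Capitals mark the motif matches found on either strand: the E-box CACGTG, the E′-box CACGTT, the D-box TTATGTAA or TTACGTAA, and the RRE core AGGTCA. For genes with more than 1 start site the window that held a match is printed. The other windows of NR1D2, PER3 and CLOCK held none of these motifs.
NR1D2, chr3:23945871-23946170, plus strand: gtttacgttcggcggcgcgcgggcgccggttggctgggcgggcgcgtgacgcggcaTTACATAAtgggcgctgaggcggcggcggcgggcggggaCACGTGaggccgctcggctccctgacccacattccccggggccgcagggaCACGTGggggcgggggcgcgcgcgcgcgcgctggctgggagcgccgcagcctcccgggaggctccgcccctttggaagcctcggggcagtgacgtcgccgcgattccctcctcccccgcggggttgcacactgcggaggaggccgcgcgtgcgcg
PER3, chr1:7784041-7784340, plus strand: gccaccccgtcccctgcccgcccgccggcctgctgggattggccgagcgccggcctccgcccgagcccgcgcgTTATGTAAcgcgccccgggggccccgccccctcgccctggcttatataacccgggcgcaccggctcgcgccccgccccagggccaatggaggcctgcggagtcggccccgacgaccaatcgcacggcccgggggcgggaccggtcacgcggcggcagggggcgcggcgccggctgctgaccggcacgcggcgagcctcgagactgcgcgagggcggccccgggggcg
PER2, chr2:238288561-238288860, minus strand: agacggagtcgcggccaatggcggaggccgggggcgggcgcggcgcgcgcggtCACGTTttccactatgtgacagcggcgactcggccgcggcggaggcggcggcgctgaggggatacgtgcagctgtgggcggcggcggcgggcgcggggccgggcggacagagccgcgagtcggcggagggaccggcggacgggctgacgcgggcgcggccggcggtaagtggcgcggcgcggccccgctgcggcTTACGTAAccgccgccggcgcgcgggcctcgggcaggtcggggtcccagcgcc
CLOCK, chr4:55545883-55546182, minus strand: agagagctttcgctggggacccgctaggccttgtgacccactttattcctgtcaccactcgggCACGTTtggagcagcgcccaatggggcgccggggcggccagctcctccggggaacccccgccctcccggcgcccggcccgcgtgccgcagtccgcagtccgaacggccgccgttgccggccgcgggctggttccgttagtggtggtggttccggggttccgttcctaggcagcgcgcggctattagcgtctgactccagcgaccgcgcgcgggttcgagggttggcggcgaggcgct
The NR1D2 window held 2 E-boxes and a D-box, the PER2 window an E′-box and a D-box, the PER3 window a D-box and the CLOCK window an E′-box. D-boxes were found in 3 of the 15 windows (20%), and in 1.01% of 35116 windows of the same length over all genes. E′-boxes were found in 5 windows (33.3%, against 5.34% of all windows), those of CLOCK, PER2, CRY1, CRY2 and NR1D1. E-boxes were found in 2 windows (13.3%, against 7.26%), those of PER1 and NR1D2, and RRE cores in 4 windows of ARNTL, PER1 and CRY2 (26.7%, against 13.8%). The cyclic AMP response element TGACGTCA was not found in these windows and was in 1.85% of all windows. No match overlapped another, and a match describes letters, not binding.

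**Figure D1:**
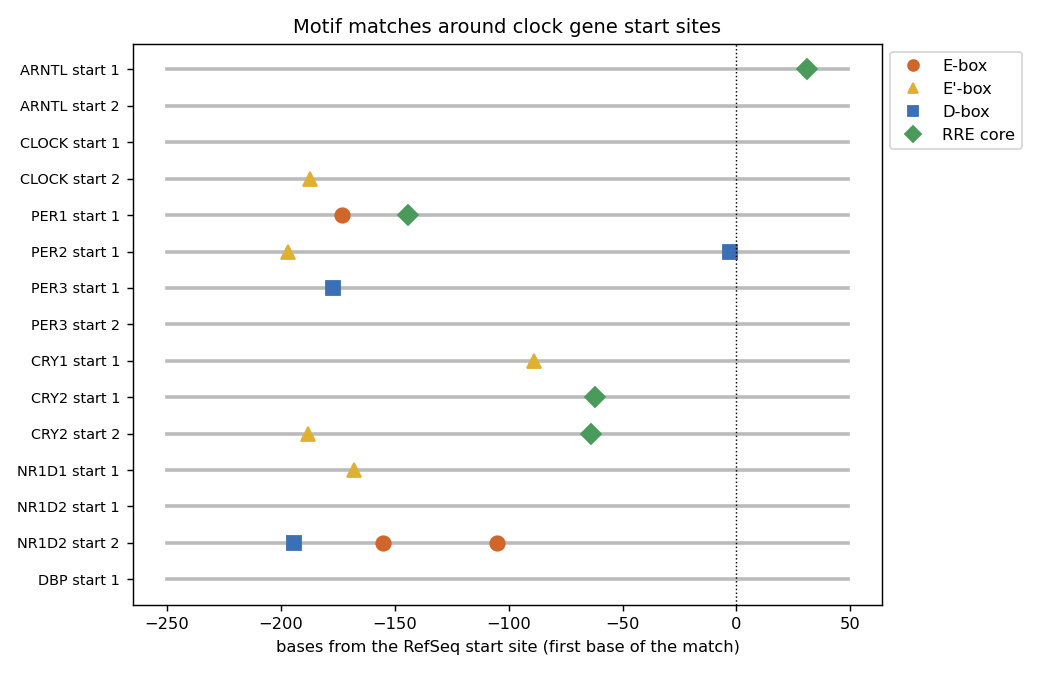
Positions of motif matches in the 15 start-site windows of the 10 clock genes, as bases from the RefSeq start site (x axis); each grey line is 1 window and each symbol the first base of a match. The D-box matches lie in windows of PER2, PER3 and NR1D2, and the NR1D2 window also holds 2 E-boxes.

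Of the 10 clock genes, 4 were lower in 3D and 0 higher at an adjusted p under 0.05 in edgeR's quasi-likelihood test, which ran over all 15314 genes that passed the filter. Over those genes 17.6% were called lower and 19.0% higher, and 36.6% in either direction. Without adjustment 6 of the 10 had a p under 0.05 in that test, namely these 4, CRY1 and CRY2. So did 46.5% of all genes tested. NR1D2 fell most, its 2D level being 2.10 times that in 3D, against 1.67 times for PER3, 1.49 times for CLOCK and 1.27 times for PER2. Levels are in CPM, the counts of a gene relative to its library total after TMM scaling, and fold changes are 3D over 2D. The median log2 fold change of the 10 genes was −0.38, against 0.02 over all genes tested. In 3D the summed level of the 10 genes lay between 178 and 193 CPM, against 232 to 249 CPM in 2D. As these are bulk samples, less RNA in every cell and fewer cells that express a gene cannot be told apart.

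Transcript length has to be read beside that count. The 4 genes called lower are the 4 whose longest annotated transcript exceeds 5 kb (CLOCK 10.3 kb, PER2 6.38 kb, PER3 6.32 kb and NR1D2 5.26 kb), while none of the 6 shorter ones was called. In these libraries 39.2% of the 3336 tested genes over 5 kb were lower in 3D. The share was 16.8% from 2.5 to 5 kb, the class of 5 of the shorter clock genes. It was 6.73% under 2.5 kb, the class of DBP. With each library corrected for transcript length and GC content, 2 of the 10 were lower, NR1D2 and CRY1, where 17.4% of all genes were. The median log2 fold change of the 10 was then −0.32, against −0.02 over all genes tested. The corrected values are given beside each gene that changed its call.

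**Figure D2:**
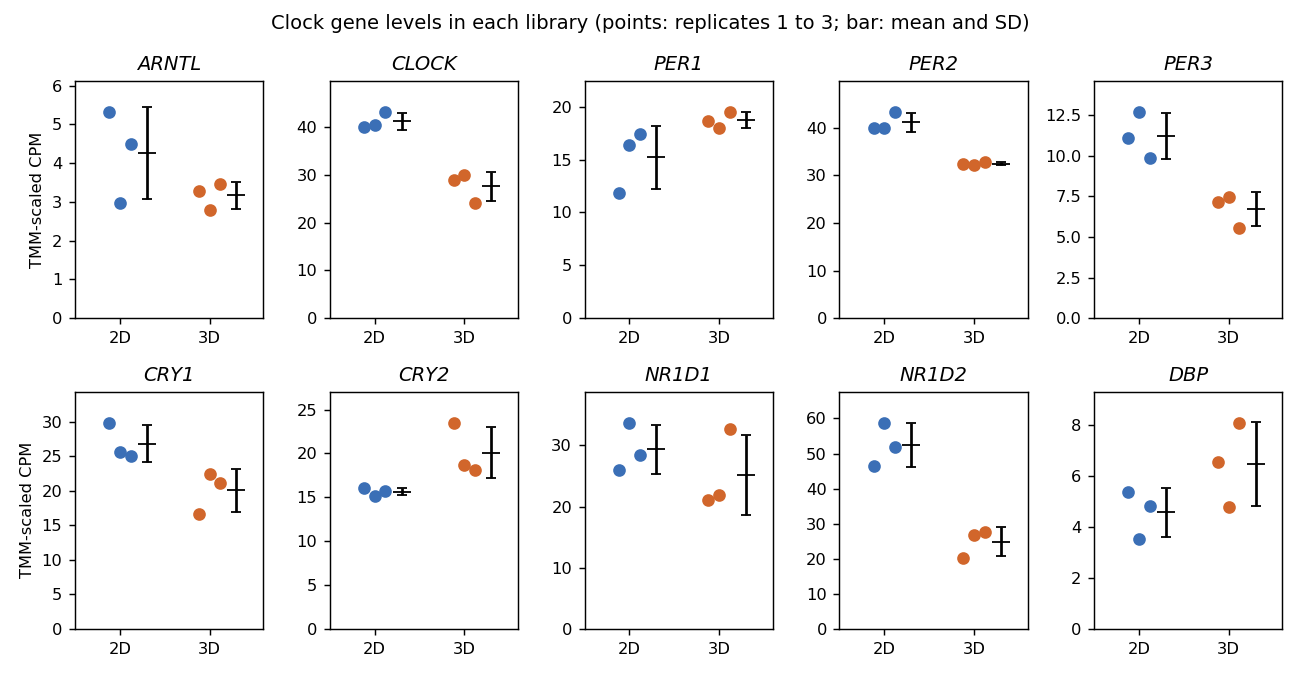
TMM-scaled CPM of the 10 clock genes (y axis, from 0, with its own range in each panel) in the 3 libraries of 2D (blue) and of 3D (orange); black bars give the mean and SD. NR1D2, CLOCK, PER2, PER3 and CRY1 lie lower in every 3D library than in any 2D library, and PER1 and CRY2 higher.

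Among the repressors that are nuclear receptors, NR1D2 (chromosome 3, 23945260 to 23980619, hg38) stood at 46.5, 58.8 and 51.9 CPM in 2D replicates 1 to 3 and at 20.1, 26.9 and 27.5 CPM in 3D replicates 1 to 3. Every 3D library was below every 2D library, and 3D replicate 1, the library with the fewest counts, was the lowest. The mean fell from 52.4 ± 6.19 to 24.8 ± 4.08 CPM (SD, n = 3 per group), a log2 fold change of −1.07 (SE 0.15, edgeR adjusted p = 0.000451). NR1D2 was called lower under all 18 alternatives run, with log2 fold changes from −1.16 to −0.71 and adjusted p-values from 1.01e-08 to 0.00295. After length and GC correction its log2 fold change was −0.77 (edgeR adjusted p = 0.00188). Its paralog NR1D1 stood at 25.9, 33.7 and 28.4 CPM in 2D and at 21.0, 21.8 and 32.6 CPM in 3D. The groups overlapped, since 3D replicate 3 lay among the 2D values. The log2 fold change of NR1D1 was −0.22 (SE 0.18, edgeR adjusted p = 0.377), and −0.46 after length and GC correction (SE 0.19, edgeR adjusted p = 0.0804). NR1D1 was called lower in 1 alternative, the replicate block joined with the length and GC correction (log2 −0.49, edgeR adjusted p = 0.0444). NR1D1 ends within THRA, the thyroid hormone receptor alpha gene on the opposite strand, which covers 9.5% of its exonic bases. THRA itself averaged 38.1 ± 3.72 CPM in 2D against 41.6 ± 6.84 CPM in 3D. No source used states the strand handling, so reads from the shared stretch may belong to either gene.

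The PER genes, which encode the proteins that enter the nucleus with CRY to stop their own transcription, include 2 that fell, PER3 and PER2, and 1 that was not called, PER1. PER3 (chromosome 1, 7784320 to 7845178) was at 11.1, 12.7 and 9.88 CPM in 2D and at 7.14, 7.49 and 5.55 CPM in 3D. The groups did not overlap, and 2D replicate 2 was the highest of the 6 libraries. Its log2 fold change was −0.74 (SE 0.19, edgeR adjusted p = 0.012). The call was lost without 2D replicate 2 (log2 −0.66, edgeR adjusted p = 0.0562) and after length and GC correction (log2 −0.50, adjusted p = 0.0501). PER2 (chromosome 2, 238244038 to 238290103) was at 40.0, 40.0 and 43.3 CPM in 2D and at 32.3, 32.2 and 32.8 CPM in 3D. The 3D libraries were nearly equal (SD 0.343 CPM) and below all of 2D. The log2 fold change of PER2 was −0.34 (SE 0.12, edgeR adjusted p = 0.043). That call was lost in 5 of the 6 runs that left out 1 library, all but the run without 3D replicate 1 (edgeR adjusted p from 0.06 to 0.146). It was also lost with the replicate block (adjusted p = 0.0856) or after length and GC correction (log2 −0.22, adjusted p = 0.13).

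PER1, the PER gene most directly induced by signals such as cyclic AMP and glucocorticoids, was at 11.8, 16.4 and 17.4 CPM in 2D and at 18.6, 18.0 and 19.5 CPM in 3D. Every 3D library was above every 2D library, with 2D replicate 1 well below the rest. Its log2 fold change of 0.30 (SE 0.17) did not pass the edgeR test (adjusted p = 0.197), nor did it under any of the 18 alternatives. Not overlapping between groups is common here: 25.6% of all genes tested lay wholly higher in 3D and 24.9% wholly lower, against 2 and 5 of the 10 clock genes.

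Neither cryptochrome, the main repressors of CLOCK and ARNTL, passed the test. CRY1 was at 29.9, 25.6 and 25.0 CPM in 2D and at 16.6, 22.5 and 21.2 CPM in 3D, with no overlap and with 3D replicate 1 the lowest. Its log2 fold change of −0.41 (SE 0.16) missed the threshold (edgeR adjusted p = 0.0582). CRY1 was called lower in 3 alternatives: among protein-coding genes only (adjusted p = 0.047), without 3D replicate 2 (log2 −0.50, adjusted p = 0.0452), and after length and GC correction (log2 −0.42, edgeR adjusted p = 0.0354). CRY2 was at 16.0, 15.2 and 15.7 CPM in 2D and at 23.5, 18.7 and 18.1 CPM in 3D. The 2D libraries were nearly equal, all 3D libraries were higher, and 3D replicate 1 was the highest. The log2 fold change of CRY2 was 0.36 (SE 0.16, edgeR adjusted p = 0.0906), and no alternative called it.

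Of the activators, CLOCK (chromosome 4, 55427903 to 55547139) was at 40.0, 40.5 and 43.2 CPM in 2D and at 28.9, 29.9 and 24.2 CPM in 3D. The groups did not overlap, and 3D replicate 3 was the lowest. The log2 fold change of CLOCK was −0.58 (SE 0.13, edgeR adjusted p = 0.00606), and the call was kept whichever single library was left out. After length and GC correction it was −0.10 (SE 0.11, edgeR adjusted p = 0.517). That correction used the longest transcript of each gene, 10.3 kb for CLOCK. With the median transcript instead, 4.06 kb for CLOCK, an alternative chosen after the data were seen, the log2 fold change was −0.33 (edgeR adjusted p = 0.0394). Which transcript of CLOCK the cells made was not tested. ARNTL, its partner, was at 5.32, 2.97 and 4.50 CPM in 2D and at 3.27, 2.78 and 3.45 CPM in 3D, from 33 to 85 counts a library. The 2D libraries spread more widely than the difference between groups (log2 −0.43, SE 0.28, edgeR adjusted p = 0.249).

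DBP, the output activator, was at 5.38, 3.52 and 4.83 CPM in 2D and at 6.55, 4.78 and 8.09 CPM in 3D, from 58 to 115 counts a library. The groups overlapped, and the log2 fold change of 0.50 (SE 0.26) was not called (edgeR adjusted p = 0.154). After length and GC correction it was 0.10. On the opposite strand SPHK2, a sphingosine kinase gene, overlaps 23.0% of the exonic bases of DBP. SPHK2 averaged 11.3 ± 1.22 CPM in 2D against 13.6 ± 0.719 CPM in 3D, so both genes of this overlap had the higher mean in 3D, and neither was called (edgeR adjusted p = 0.209 for SPHK2). No exonic bases were shared where TMEM165 overlaps CLOCK and NKIRAS1 overlaps NR1D2. Neither TMEM165 (log2 0.03) nor NKIRAS1 (log2 −0.18) was called. The antisense gene RP11-5O24.1, which overlaps PER2, had 1 to 8 counts a library and was not tested.

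**Figure D3:**
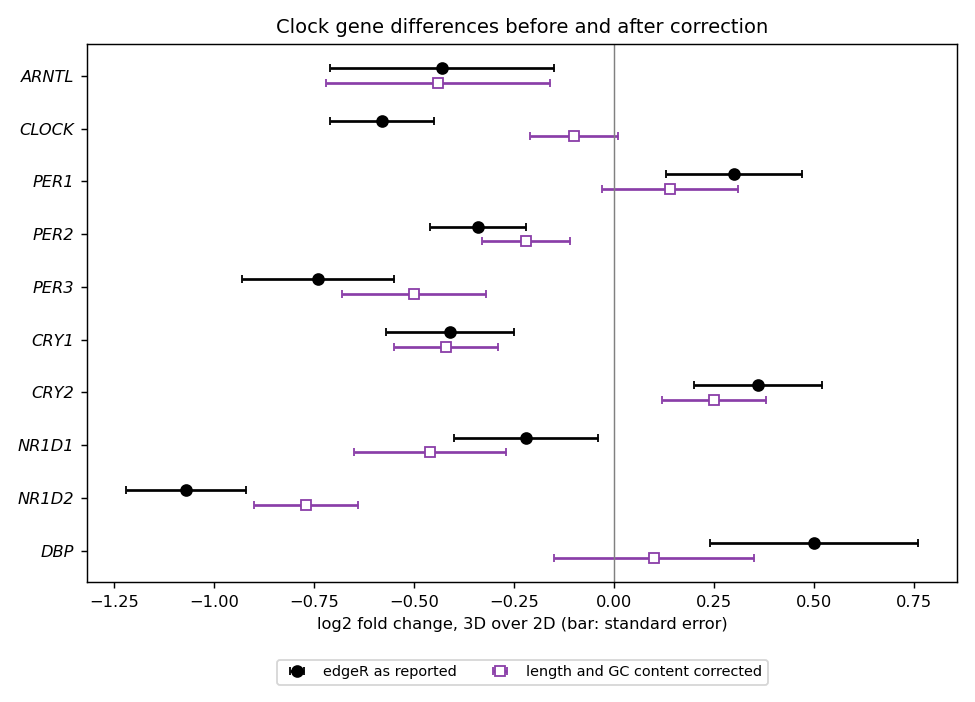
Log2 fold change, 3D over 2D, of the 10 clock genes (x axis) with its standard error, from edgeR as reported (black circles) and with each library corrected for transcript length and GC content (open squares). CLOCK moves from −0.58 to −0.10 and NR1D2 from −1.07 to −0.77, while CRY1 stays at −0.41 and −0.42.

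Paralogs of the repressor arm were set against each other inside each library, where library scaling cancels. The log2 ratio of PER1 to PER2 counts was −1.76, −1.29 and −1.31 in 2D and −0.79, −0.84 and −0.75 in 3D. That of CRY2 to CRY1 was −0.90, −0.76 and −0.68 in 2D and 0.51, −0.27 and −0.23 in 3D. The NR1D1 to NR1D2 ratio was −0.85, −0.80 and −0.87 in 2D and 0.06, −0.30 and 0.24 in 3D. In each of these pairs all 3D libraries lay above all 2D libraries, by 0.66, 0.78 and 0.84 between the group means. These ratios were chosen with the single genes' values known and are given without a test. In each pair the first-named transcript is the richer in GC: 62.7% for PER1 and 52.4% for PER2, 57.0% for CRY2 and 47.7% for CRY1, and 59.5% for NR1D1 and 38.5% for NR1D2. Between the genes of each pair, the edgeR log2 fold changes after length and GC correction differed by 0.36, 0.67 and 0.31 in the same order. The ratio of NR1D1 to ARNTL, a repressor and its target, was 2.28, 3.50 and 2.66 in 2D and 2.68, 2.97 and 3.24 in 3D, and these values overlapped.

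**Figure D4:**
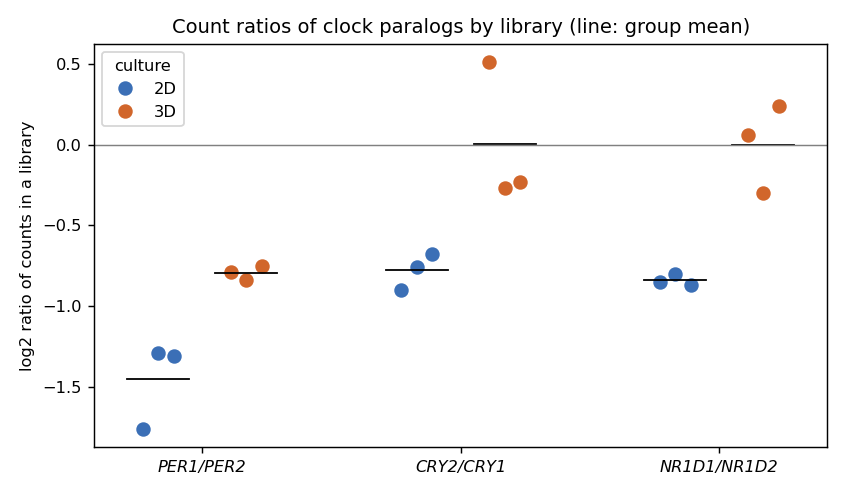
Log2 ratio of the counts of 2 paralogs within a library (y axis) for 3 pairs of clock repressors; points are the 3 libraries of 2D (blue) and of 3D (orange), lines the group means. All 3D points lie above all 2D points in each pair, with means 0.66, 0.78 and 0.84 higher.

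Levels were compared between genes per kilobase of the longest transcript. In 2D the order ran from NR1D1 (10.6 CPM per kb) and NR1D2 (9.97) through CRY1 (8.22), PER2 (6.44), CLOCK (4.0), CRY2 (3.71), PER1 (3.23) and DBP (2.05) to PER3 (1.78) and ARNTL (1.53). The ranges of neighbours overlapped for NR1D1 and NR1D2, NR1D2 and CRY1, CRY2 and PER1, DBP and PER3, and PER3 and ARNTL. In 3D NR1D1 led alone at 9.07 CPM per kb. CRY1 (6.15), PER2 (5.08), CRY2 (4.78), NR1D2 (4.72) and PER1 (3.98) followed as a chain of overlapping ranges, then DBP (2.90) and CLOCK (2.68), which overlapped, then ARNTL (1.14) and PER3 (1.07), which overlapped too. NR1D2 was thus in the second place in 2D and the fifth in 3D. Per kilobase of the median transcript instead, NR1D2 was in the third and the seventh place, NR1D1 still led both orders, and CLOCK (10.2 CPM per kb in 2D, 6.81 in 3D) was in the second place in both, so the place of CLOCK depends on the transcript chosen.

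Other transcription factors of the clock were counted from a list of 12, of which 9 could be tested. The list also holds TIMELESS, which is not a transcription factor. RORB was not analysed here, and BHLHE41 and CIART had at most 11 and 5 counts in any library. Of the 9 tested, 4 were higher, TIMELESS among them, and 2 lower in 3D, where 19.0% of all genes were higher and 17.6% lower. The median log2 fold change was 0.31 (0.02 over all genes). BHLHE40 (DEC1), which represses E-box genes, was at 25.6, 22.6 and 20.8 CPM in 2D and at 158, 127 and 85.9 CPM in 3D. All 3D libraries were far above 2D, and 3D replicate 3 was the lowest of them. Its log2 fold change was 2.42 (SE 0.21, edgeR adjusted p = 5.21e-05), and it was called under all 18 alternatives. NFIL3, the D-box repressor, was at 127, 137 and 129 CPM in 2D and at 60.8, 73.7 and 101 CPM in 3D (log2 −0.73, SE 0.17, edgeR adjusted p = 0.00595), and was also called under all 18. Within a library the log2 ratio of DBP to NFIL3 counts was −4.86 ± 0.37 in 2D and −3.60 ± 0.37 in 3D (SD, n = 3), with no overlap and no test. These means differ by 1.26, and the edgeR log2 fold changes of DBP and NFIL3 differed by 0.92 after length and GC correction. DBP itself was not called.

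The calls of TIMELESS, ARNTL2 and NPAS2 did not hold without some single libraries. TIMELESS, a replication fork protein related to the fly clock gene, was at 30.5 ± 8.53 and 47.5 ± 6.80 CPM (log2 0.64, edgeR adjusted p = 0.0228). ARNTL2, a paralog of ARNTL, was at 16.4 ± 2.19 and 23.3 ± 2.96 CPM (log2 0.51, edgeR adjusted p = 0.0289), and NPAS2, a paralog of CLOCK, at 79.6 ± 1.52 and 62.2 ± 8.48 CPM (log2 −0.36, edgeR adjusted p = 0.0454). TIMELESS lost its call without 2D replicate 1 or 2 or 3D replicate 1 (edgeR adjusted p from 0.074 to 0.0986). ARNTL2 lost it without 2D replicate 1 or 2 or 3D replicate 2 or 3 (edgeR adjusted p from 0.0561 to 0.132), and NPAS2 without any 1 of the 2D replicates or 3D replicate 2 (adjusted p from 0.105 to 0.11). RORA (41.7 and 31.2 CPM), TEF (13.8 and 17.1 CPM) and HLF (531 and 462 CPM) were not called.

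The paralogs outside the 10 genes were often the more abundant ones in HepG2. Per kilobase, NPAS2 reached 19.9 CPM in 2D against 15.5 CPM in 3D, and CLOCK 4.0 against 2.68 CPM. HLF stood at 95.8 and 83.2 CPM per kb and the D-box repressor NFIL3 at 62.8 and 37.7 CPM per kb, against 2.05 and 2.90 CPM per kb for DBP. ARNTL2 stood at 2.42 and 3.43 CPM per kb, against 1.53 and 1.14 CPM per kb for ARNTL. Per kilobase of the median transcript the order within each pair was the same, with NPAS2 at 19.9 and CLOCK at 10.2 CPM per kb in 2D.

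Of 26 kinases, ubiquitin ligases and cofactors that act on clock proteins, 14 were lower and 2 higher in 3D, where 17.6% of all genes were lower and 19.0% higher, and the median log2 fold change was −0.38. Of the 12 with a transcript over 5 kb, 9 were lower, against 39.2% of all genes of that length. Of the 14 shorter ones 5 were lower, against 16.8% of all genes of 2.5 to 5 kb and 6.73% of those under 2.5 kb. SIRT1, a deacetylase that binds CLOCK, was at 57.0, 57.1 and 54.7 CPM in 2D and at 25.4, 25.9 and 27.0 CPM in 3D (log2 −1.11, SE 0.12, edgeR adjusted p = 9.38e-05). The acetyltransferases EP300 and CREBBP, coactivators of many genes, fell: EP300 from 185 ± 10.5 to 97.0 ± 8.01 CPM, CREBBP from 161 ± 1.92 to 89.6 ± 3.15 CPM. PRKAA1, the AMP kinase subunit that marks CRY1 for decay, fell from 103 ± 4.42 to 58.7 ± 11.1 CPM (log2 −0.81). HDAC3, the deacetylase through which NR1D1 represses, rose from 36.4 ± 0.484 to 57.6 ± 2.59 CPM (log2 0.66, edgeR adjusted p = 0.00129). These 5 genes were called under all 18 alternatives. WDR5, a chromatin cofactor of PER, rose from 66.3 ± 1.85 to 88.7 ± 6.45 CPM (log2 0.42, edgeR adjusted p = 0.0142), and lost its call without any 1 of the 2D replicates (adjusted p from 0.0591 to 0.0672).

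BTRC and FBXW11, ubiquitin ligase subunits that target PER proteins, had log2 fold changes of −0.64 and −0.47 (edgeR adjusted p = 0.00535 and 0.0145), and the ligase HUWE1 −0.61 (adjusted p = 0.00568). The ligase subunits FBXW7 (log2 −0.32, edgeR adjusted p = 0.0759) and FBXL21 (log2 −0.30, adjusted p = 0.287) were not called. Of the casein kinase 1 genes, whose products phosphorylate PER, CSNK1A1 (log2 −0.62, edgeR adjusted p = 0.00575) and CSNK1D (log2 −0.42, adjusted p = 0.0141) were lower, while CSNK1E averaged 72.5 ± 2.03 CPM on plates and 73.1 ± 12.3 CPM in the bioreactor. FBXW11 lost its call without 2D replicate 1 or 3D replicate 3 (edgeR adjusted p from 0.0512 to 0.0621), CSNK1D without 2D replicate 1 or 2 (0.0544 to 0.0645), and CSNK1A1 after length and GC correction (log2 −0.28, adjusted p = 0.107). With the median transcript corrected BTRC and FBXW11 lost theirs. After length and GC correction, 11 of the 26 were lower and 3 higher, where 17.4% of all genes were lower and 16.6% higher. Without 2D replicate 1 the number lower was 9, where 11.6% of all genes were lower.

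Clock-controlled output genes, drawn from liver metabolism and growth control, were listed as 14 and tested as 13, since UPP2 had at most 3 counts. Of these, 5 were higher and 1 lower in 3D, against 19.0% and 17.6% of all genes, and the median log2 fold change was 0.11. PCK1, the enzyme that commits carbon to glucose synthesis, was at 12.7, 18.0 and 14.3 CPM in 2D and at 60.5, 66.2 and 64.5 CPM in 3D (log2 2.09, SE 0.15, edgeR adjusted p = 1.89e-05). ALAS1, the first enzyme of heme synthesis, rose from 22.6 ± 2.29 to 39.9 ± 2.60 CPM (log2 0.82, edgeR adjusted p = 0.000913). G6PC, the phosphatase that releases glucose and a gene repressed by NR1D1, rose from 5.98 ± 1.51 to 25.9 ± 11.8 CPM (log2 2.12, edgeR adjusted p = 0.00114). CDKN1A, the cell cycle inhibitor p21, rose from 71.7 ± 7.79 to 122 ± 14.3 CPM. LPIN1, a phosphatidate phosphatase, fell from 25.7 ± 4.92 to 15.7 ± 2.51 CPM (log2 −0.70, edgeR adjusted p = 0.0112), a call lost without 2D replicate 1 (adjusted p = 0.0544). The 7 genes of this list that were not called include WEE1 (62.5 and 67.4 CPM), NAMPT (56.8 and 55.4 CPM) and NOCT (5.85 and 5.66 CPM). Their log2 fold changes were 0.11, −0.03 and −0.04. The genes of this list answer to many signals besides the clock.

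**Figure D5:**
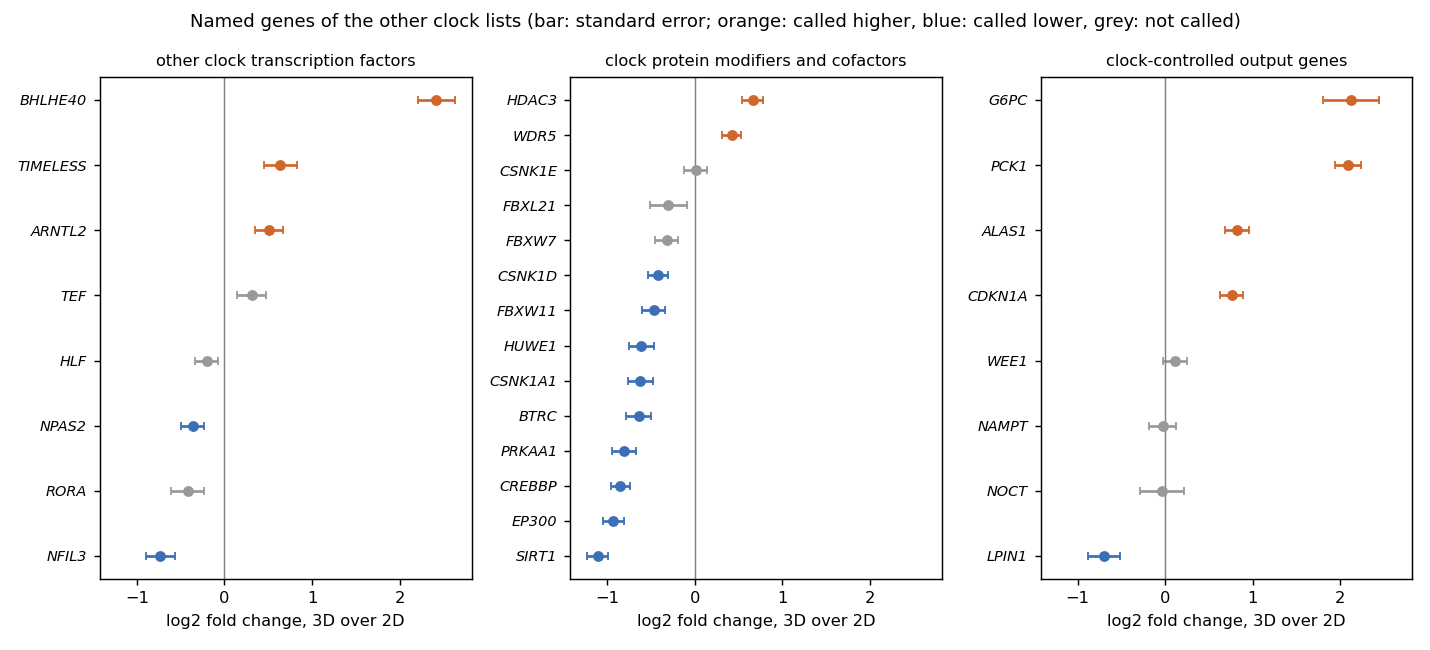
Log2 fold change, 3D over 2D, with its standard error (x axis) for the genes of 3 lists of other clock genes that are named here with values; orange marks genes called higher, blue genes called lower and grey genes not called. BHLHE40 (2.42), G6PC (2.12) and PCK1 (2.09) stand furthest to the right, and SIRT1 (−1.11) furthest to the left.

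The gene pattern most like that of NR1D2, the clock gene with the smallest adjusted p, was sought among 11313 genes of at least 5 CPM. Over the 6 libraries the highest Pearson correlations of log2 CPM were with FNIP1 (0.999), ZNF24 (0.999) and PPP1R15B (0.998). FNIP1 fell from 56.0 ± 3.29 to 36.9 ± 4.05 CPM, ZNF24 from 156 ± 12.3 to 87.2 ± 12.6 CPM and PPP1R15B from 104 ± 8.06 to 52.1 ± 8.96 CPM. FNIP1 lost its call after length and GC correction (log2 −0.22, edgeR adjusted p = 0.151). A correlation over 6 libraries in 2 groups is set mostly by the difference between the groups.

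Library totals were 16270376 to 17943529 counts in 2D and 9530820 to 15897619 in 3D. All 8 hepatocyte markers (ALB, APOA1, TTR, HNF4A, SERPINA1, AFP, FGB and TF) were tested, and they summed to between 21640 and 26327 CPM in 2D and between 26111 and 44404 CPM in 3D. Of these 8, 2 were called higher in 3D (APOA1 and TF), 0 were called lower and 6 were not called. Of the markers of other cell types, 1 of 6 fibroblast genes (PDGFRB, 6.97 to 13.7 CPM in 2D and 2.98 to 3.55 CPM in 3D), 3 of 6 endothelial genes (in sum 2.00 to 4.79 CPM and 2.46 to 5.49 CPM) and 1 of 6 blood cell genes (CD14, 1.17 to 1.82 CPM and 1.59 to 3.10 CPM) had enough counts to test. PDGFRB was called lower and none of the other 4 was called. THY1 and CD79A had at most 4 and 11 counts.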

How the data were processed

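The members and gene lists were chosen with earlier results of these data known. The authors deposited a table of unscaled estimated counts, 1 column per sample. 61.7% of its values are whole (tolerance 0), and the lowest gene total is 10. The tools were STAR 2.4.1d and Partek and the build was hg38, per the submitters' processing notes. Annotation, counting and strand settings are not stated there, so reads of overlapping genes or near-identical copies are uncertain. The table's stop positions lie 1 base past those of GENCODE release 29 for the clock genes.

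Counts were rounded to whole numbers, which moved no library total by more than 25.0. The comparison used edgeR 4.0.16 under R 4.3.3, with filterByExpr, TMM, a robust quasi-likelihood fit of culture on the 6 libraries, and Benjamini-Hochberg adjustment over 15314 genes. Calls were made at adjusted p-values under 0.05. Standard errors come from the F statistic. A count of 3 equals 0.167 to 0.298 CPM. No replicate pair agreed within sampling noise (chi-square per degree of freedom 10.3 to 26.7).

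Alternatives were DESeq2 1.42.0, limma-voom (limma 3.58.1), other scalings, filters and libraries, the replicate block, and a loess correction (span 0.5) for the length and GC content of the longest GENCODE transcript, known for 90% of the genes tested. The same with the median transcript, and levels per kilobase of it, were added after the data were seen.

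Named were all 10 members and overlapping genes. From each other list came up to 4 called genes per direction with at least 1 CPM. The 3 genes most like the clock gene of smallest adjusted p were named too. BTRC, FBXW11, FBXW7, FBXL21, HUWE1, CSNK1D, CSNK1A1, CSNK1E, CDKN1A, RORA, TEF, HLF, WEE1, NAMPT and NOCT were named after their values were seen. Some called genes of the lists are counted but not reported here by name. In 5 simulations with 3 libraries per group, 200 genes were changed among 15072 to 15093 tested. There edgeR recovered 20.9% of 1.5-fold, 68.6% of 2-fold and 95% of 4-fold changes, and 9.31% of its calls were false. In the data 36.6% of genes were called, a far larger share than was changed in the simulations. These rates therefore need not hold for the data.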

Additional observations from a re-analysis of the deposited data

How the results depend on the processing

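Of the 10 clock genes, the number lower in 3D was 4 as reported. It was 2 after length and GC correction (NR1D2 and CRY1), 2 with the replicate block added to that correction (NR1D2 and NR1D1), 2 with the median transcript corrected (NR1D2 and CLOCK), 2 without 2D replicate 2 and 3D replicate 1 together (NR1D2 and CLOCK), and 2 to 4 without any single library. It was 3 with upper-quartile scaling and 3 with the replicate block alone, where PER2 lost its call. None was higher under any of the 18 alternatives, and no gene of the 10 changed the sign of its log2 fold change. Among other clock transcription factors and TIMELESS, the 2 lower became 1 with upper-quartile scaling, 1 with the replicate block and 1 with the median transcript corrected. They became 1 without the pair of libraries, and 1 to 2 without single libraries. The 4 higher became 2 without the pair and 1 to 3 without single libraries. Of the modifiers and cofactors, the 14 lower ranged from 9 to 15 without single libraries. The 2 higher became 4 with the median transcript corrected, 1 without the pair, and 1 to 3 without single libraries. Of the output genes, the 1 lower became 2 after length and GC correction, 2 with the block added to it, 0 without the pair, and 0 to 1 without single libraries, and the 5 higher became 4 without the pair and were 5 or 6 under every other alternative. Over all genes, the share called lower was 17.6% as reported, 11.6% to 17.9% without single libraries and 13.4% without the pair. The share called higher was 19.0%, 12.3% to 18.0% and 14.2% in the same order. With the length and GC corrections, upper-quartile scaling or the replicate block, 15.9% to 17.7% were lower and 15.2% to 20.1% higher. The cause of these shifts was not tested. Runs without libraries also had fewer samples. Deviations of same-numbered libraries from their group means correlated at 0.05, −0.01 and −0.08, so no pairing by replicate number was seen. Such correlations cannot tell whether the samples were paired by design. Depth limits ARNTL and DBP most, at 33 to 115 counts a library.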
